A study of Mus musculus with 4 samples.

Results

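Goblet and Paneth cells are the mucus-making and the antimicrobial secretory cells of the intestinal epithelium, and the RNA of their products was compared between control and Yy1 knockout gut of mouse embryos. The 10 named products were Muc2, Tff3, Clca3, Spdef, Fcgbp, Agr2, Spink4, Zg16, Mmp7 and Lyz1, and every probe set annotated with only 1 of these symbols was taken. The name Clca3 was read as Clca1, of which it is an older name, and also as Clca3a1, so that 11 genes with 18 of the 45101 probe sets of the array stand for the 10 names. Of these 18 probe sets, 13 passed the filter on low values, and each of the 11 genes had at least 1 among them.

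RNA came from 4 samples of small intestinal epithelium at E15.5, selected with magnets for the surface protein Epcam from gut that reached, per the labels, from the proximal stomach to the distal caecum. Controls (YY1f/f, 2 arrays) carried floxed Yy1 alleles without Cre and were littermates, and knockouts (Yy1f/f; Shh-Cre, 2 arrays) carried the same alleles with Cre made from the Shh locus, which is active in gut endoderm. Each sample held up to 2 pooled embryos of 1 genotype, so the spread behind each p-value is that between pools. No control carried Cre, so what the Cre allele does and what loss of Yy1 does cannot be told apart. Values are log2 intensities made by the authors with GCRMA, a change is knockout minus control, between group means, and its standard error (SE) and adjusted p come from limma, with a threshold of 0.05. The lowest value on the arrays was 2.36, and a probe set was tested when it reached a log2 of 4 on at least 2 arrays. Yy1 RNA fell on each of its 4 probe sets, to between 23.4% and 44.7% of control (adjusted p = 0.00108 to 0.00209). On the probe set with the highest mean the adjusted p was 0.0504 without control 2. In whole selected epithelium, more cells of a type and more RNA per cell cannot be told apart.

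Goblet cells release Muc2, a mucin that forms the gel of intestinal mucus, together with proteins that fold it, cut it, bind it or bind bacteria in it. Atoh1 commits cells to the secretory lineage in the mouse gut, and Gfi1 and Spdef act after it in goblet and Paneth cells. Paneth cells sit at the base of crypts and release lysozyme and alpha-defensins, which the protease Mmp7 activates in the mouse. Crypts and mature Paneth cells form in the mouse after birth, so products of Paneth cells on these arrays are read as RNA levels only.

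Promoter windows of RefSeq (GRCm38.p6, 250 bases before to 50 after a gene's start) were on hand for 7 of the 11 genes. That of Muc2 is shown because its RNA changed most among the members, and that of Mmp7, the first of its 2 windows, because it is the Paneth cell product that rose. Those of Lyz1 and its neighbour Lyz2 are shown because probe sets may not separate these near copies. Capitals mark matches to the letters CAGCTG, an E-box of the kind bound by Atoh1 and related factors, or TATAAA, the TATA box.

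Muc2 (chr7:141690090-141690389, plus strand): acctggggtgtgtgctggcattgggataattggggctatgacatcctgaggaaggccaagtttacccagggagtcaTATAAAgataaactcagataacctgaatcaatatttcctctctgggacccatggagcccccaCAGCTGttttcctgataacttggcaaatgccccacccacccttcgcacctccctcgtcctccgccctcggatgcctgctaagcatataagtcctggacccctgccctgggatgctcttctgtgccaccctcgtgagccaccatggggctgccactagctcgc
Mmp7 (chr9:7691840-7692139, plus strand): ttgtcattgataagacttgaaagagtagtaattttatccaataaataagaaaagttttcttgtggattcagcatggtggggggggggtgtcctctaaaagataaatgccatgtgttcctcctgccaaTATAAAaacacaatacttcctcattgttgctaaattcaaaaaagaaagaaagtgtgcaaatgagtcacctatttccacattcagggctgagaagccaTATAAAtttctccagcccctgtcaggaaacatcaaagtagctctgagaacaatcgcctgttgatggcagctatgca
Lyz1 (chr10:117292819-117293118, minus strand): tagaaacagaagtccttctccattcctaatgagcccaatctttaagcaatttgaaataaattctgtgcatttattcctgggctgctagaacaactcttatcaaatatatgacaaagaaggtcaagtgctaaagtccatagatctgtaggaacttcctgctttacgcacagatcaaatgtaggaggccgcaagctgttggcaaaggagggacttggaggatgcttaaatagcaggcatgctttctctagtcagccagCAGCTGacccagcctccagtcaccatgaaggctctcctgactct
Lyz2 (chr10:117282223-117282522, minus strand): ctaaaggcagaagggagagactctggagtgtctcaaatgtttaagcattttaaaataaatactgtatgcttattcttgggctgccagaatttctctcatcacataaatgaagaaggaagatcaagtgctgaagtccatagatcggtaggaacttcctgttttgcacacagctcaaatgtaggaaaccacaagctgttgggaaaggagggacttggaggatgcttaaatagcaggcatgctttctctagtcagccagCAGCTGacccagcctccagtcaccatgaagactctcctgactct

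The search covered both strands and also used AANATGGC, the core bound by YY1, and TGTTTAC, bound by forkhead factors, and no matches overlapped. CAGCTG was found in the windows of Muc2, Clca3a1, Fcgbp and Lyz1, which is 4 of the 7 genes, and in 16.3% of all 32851 windows of this length. TATAAA was found for Muc2 and Mmp7 (13.6% of all windows), and neither AANATGGC (6.05%) nor TGTTTAC (3.65%) was found for any of the 7. In the window of Mmp7 a TATAAA began 26 and another 123 bases before the start site, while the one of Muc2 began 174 bases before it. The windows of Lyz1 and Lyz2 were identical at 249 of 302 aligned positions (82.5%), and both held CAGCTG from base 7 of the transcript on.

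Products of goblet and Paneth cells were higher in the knockout: 9 of the 11 genes rose, none fell, and Clca1 and Lyz1 did not pass. Over all 8626 genes tested, 17.9% rose and 21.7% fell, 39.6% in all. Even at an unadjusted p under 0.05 in limma, none of the 11 was lower, and all 11 were higher (22.9% of all genes were higher at that level). The median log2 change of the 11 was 1.49, with a range of 0.72 to 2.87, against a median of -0.03 over all tested genes. Both knockout arrays lay above both control arrays in all 11 genes, as in 35.4% of all genes, while 39.6% of all genes had both knockouts below both controls. In 3 of the 9 that rose, Zg16, Clca3a1 and Mmp7, neither control reached the filter, and a gene with dim controls could enter the test only by being higher in the knockouts. Of the other 8 genes 6 rose, against 14.7% of all genes with a control array over the filter. A rise of at least 2-fold was seen in 7 of the 11, and in 5.94% of all genes. Fewer of the 11 passed with any 1 array left out, as did fewer of all genes. All 11 changes stayed positive then, from 0.37 (Clca1 without control 1) to 3.24 (Muc2 without control 2).

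**Figure D1:**
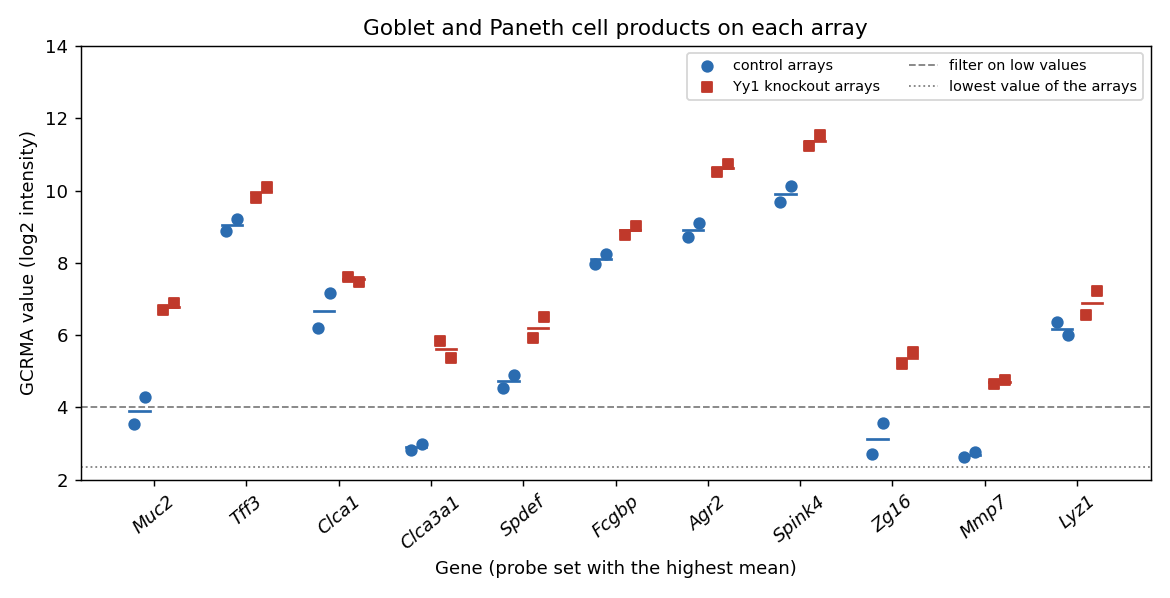
GCRMA log2 intensity of the 11 genes on each array, for the probe set of each gene with the highest mean. Circles are the 2 control arrays, squares the 2 knockout arrays and short lines the group means, and both squares lie above both circles for every gene, least clearly for Clca1 and Lyz1.

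Of the genes for the mucus gel, Muc2 changed most. Its only probe set (1428435_at) read 3.54 and 4.28 in the controls, against 6.68 and 6.88 in the knockouts. The controls lay near the filter and the knockouts well above it, with 2.41 log2 units between the nearest arrays of the groups. The log2 change was 2.87 (SE 0.25, limma adjusted p = 0.00167), a 7.31-fold rise. Zg16, a lectin of mucus that binds bacteria, read 2.71 and 3.56 in the controls, against 5.19 and 5.53 in the knockouts on 1434137_x_at. Both controls were dim, and the groups were 1.64 log2 units apart. The change was 2.23 (SE 0.30, limma adjusted p = 0.00471), and with the controls set to the filter value the rise was at least 2.56-fold. Its further probe set 1428359_s_at was too dim to test, with 2.70 and 3.08 against 3.79 and 4.21, and 1428358_at stayed between 2.45 and 2.46 on all arrays. The probe sets of Zg16 therefore differ in size of change, while both that left the floor were higher in both knockouts. Fcgbp, a large protein bound to the mucus gel, read 7.96 and 8.25 in the controls, against 8.77 and 9.03 in the knockouts. These groups were closer, 0.53 log2 units apart, and the change was 0.80 (SE 0.15, limma adjusted p = 0.0135), a 1.74-fold rise. Fcgbp did not pass when any 1 array was left out (adjusted p = 0.0564 to 0.100), and Zg16 did not pass without knockout 1 (0.0538) or knockout 2 (0.0756).

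Agr2, a disulfide isomerase of the endoplasmic reticulum that mucin production needs, was measured by a pair of probe sets. On 1419268_at it read 8.71 and 9.11 in the controls, against 10.5 and 10.7 in the knockouts, and on 1455802_x_at 8.08 and 8.50 against 9.85 and 9.91. Both probe sets showed the groups well apart, with changes of 1.71 (SE 0.17, limma adjusted p = 0.00222) and 1.59 (SE 0.16, adjusted p = 0.00235). On the first of them this was a 3.28-fold rise.

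The Clca genes, named for chloride channels but encoding secreted proteins, gave 1 call: Clca3a1 passed and Clca1 did not, and the difference between them was not tested. Clca1 (gob-5, older name Clca3), a metalloprotease that goblet cells release into mucus, read 6.19 and 7.17 in the controls, against 7.61 and 7.47 in the knockouts. The controls differed from each other by 0.98, more than the gap of 0.31 to the knockouts. The change of 0.86 (SE 0.32, 95% interval 0.07 to 1.66) did not pass (limma adjusted p = 0.0855). It did pass without control 2, at a change of 1.35 (adjusted p = 0.0374), while without control 1 the change was 0.37 (0.148). The further Clca1 probe set stayed at the floor, from 2.36 to 2.37. Clca3a1, a neighbouring gene of the family, was dim in both controls on 1417852_x_at (2.83 and 2.98) and bright in the knockouts (5.85 and 5.36). Its change was 2.70 (SE 0.18, limma adjusted p = 0.00105), at least 3.04-fold above the filter value. Its further probe set 1417853_at was too dim to test, at 2.36 and 2.42 against 3.60 and 2.77. The suffix of 1417852_x_at marks probes that can match related transcripts, so reads of other Clca genes in this value were not separated. With Clca3 read as Clca1 alone, 8 of 10 genes rose, a reading added after the data had been seen.

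Tff3, a trefoil peptide of goblet cells that protects and repairs the epithelium, read 8.88 and 9.21 in the controls, against 9.80 and 10.1 in the knockouts. The groups did not overlap, and the change was 0.90 (SE 0.17, limma adjusted p = 0.0122), a 1.87-fold rise. Leaving out any 1 array ended the call (adjusted p = 0.0540 to 0.0969). Spink4, a goblet cell peptide of the family of Kazal protease inhibitors, read 9.68 and 10.1 in the controls, against 11.2 and 11.5 in the knockouts. The groups were 1.10 log2 units apart, and the change was 1.48 (SE 0.19, limma adjusted p = 0.00456), a 2.78-fold rise. Without knockout 2 its adjusted p was 0.0633.

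Among products of Paneth cells, Mmp7 rose and Lyz1 did not pass. Mmp7, the protease that activates alpha-defensins in the mouse, read 2.63 and 2.76 in the controls, against 4.65 and 4.77 in the knockouts. Both controls lay close to the floor and both knockouts not far above the filter. The change was 2.02 (SE 0.11, limma adjusted p = 0.000749), and with the controls set to the filter value the rise was at least 1.64-fold. Lyz1, a lysozyme of Paneth cells, read 6.36 and 5.99 in the controls, against 6.56 and 7.23 in the knockouts on 1436996_x_at. The groups lay only 0.20 apart there and overlapped on 1439426_x_at, with 6.10 and 6.05 against 6.0 and 6.98. The changes of 0.72 (SE 0.25, 95% interval 0.09 to 1.35, limma adjusted p = 0.0755) and 0.41 (SE 0.31, 95% interval -0.38 to 1.203, adjusted p = 0.349) did not pass. On the first of them the change was 0.39 without knockout 2 and 1.05 without knockout 1, and neither passed (adjusted p = 0.281 and 0.0616). The Lyz1 probe set without the suffix, 1450822_at, read 2.37 on every array. Lyz2, the lysozyme gene of macrophages next to Lyz1, read 4.05 and 3.76 in the controls, against 4.42 and 4.84 in the knockouts and rose by 0.72 (SE 0.19, limma adjusted p = 0.0321). The high readings of the 2 Lyz1 probe sets with the suffix may include RNA of Lyz2 and were not separated from it.

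Spdef is the transcription factor among the members and drives maturation of goblet and Paneth cells. It read 4.54 and 4.90 in the controls, against 5.91 and 6.50 in the knockouts. The groups were 1.01 log2 units apart, and the change was 1.49 (SE 0.23, limma adjusted p = 0.00772), a 2.80-fold rise. Without control 1, control 2 or knockout 2 its adjusted p was 0.0786, 0.0674 and 0.0598.

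**Figure D2:**
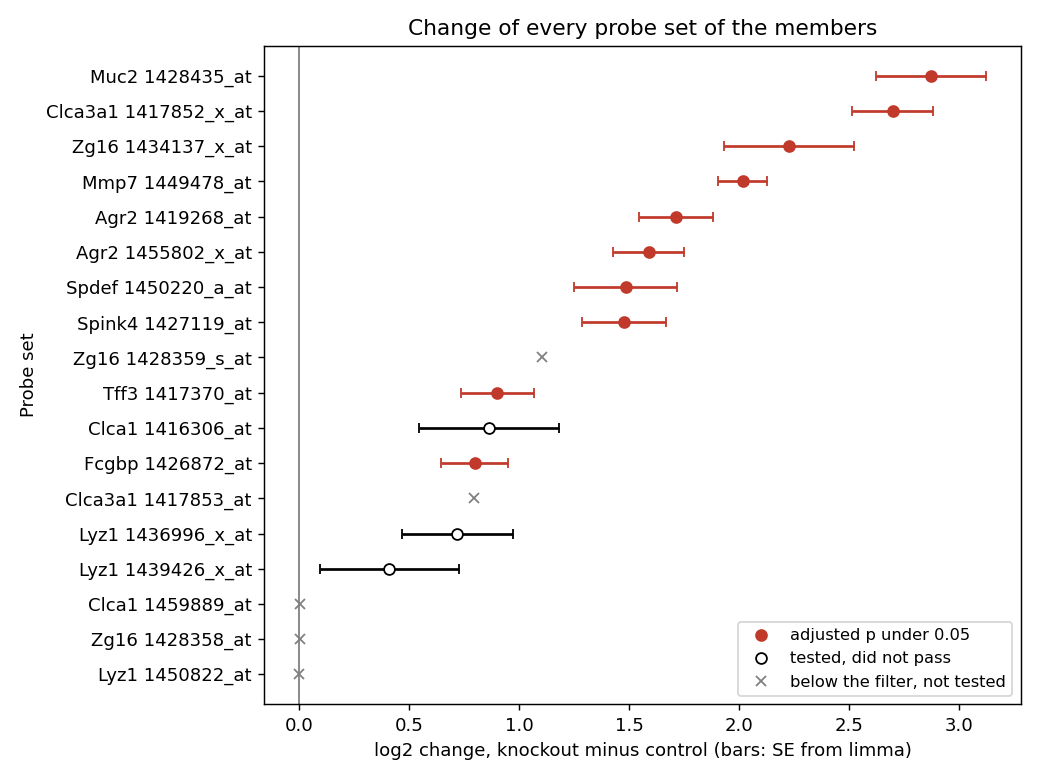
Log2 change, knockout minus control, of all 18 probe sets, with bars of 1 SE from limma for the 13 tested. Filled circles passed an adjusted p of 0.05 (10 probe sets), open circles did not (3), and crosses were too dim to test (5), of which 3 lie close to 0.

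Counted by probe set, 10 of the 13 tested rose and none fell, against 17.1% of all 16887 tested probe sets that rose and 20% that fell. The authors' deposited table of changed probe sets lists 2156 probe sets with changes of at least 2-fold. Of these, 9 belong to 7 of the genes, all with positive log2 changes. The share of positive changes among all listed probe sets was not counted. The listed changes equalled knockout minus control on these same arrays to within 0.00748, so they are not a separate measurement. That table gives Muc2 a log2 change of 2.87 with an adjusted p of 0.000381.

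The members also varied together between arrays of the same genotype. Control 2 read above control 1 in 10 of the 11 genes (65.5% of all genes), by a median of 0.36 log2 units, and knockout 2 above knockout 1 in 9 of the 11 (56.1%), by a median of 0.26. In 8 of the 11 the second array was the higher in both genotypes, against 34.1% of all tested genes. Over all genes the medians of these differences were 0.06 and 0.03. The summed intensity of the 11 genes stood at a log2 of 11.1 and 11.5 in the controls and at 12.5 and 12.8 in the knockouts. The shift between genotypes was thus larger than the difference within either of them.

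By the smallest Euclidean distance to Muc2 over the 4 arrays, each gene taken relative to its control mean, the 5 genes most like Muc2 outside the list were Pik3r3 (0.41), Nfix (0.44), Tgfb1i1 (0.45), Mgll (0.47) and Psrc1 (0.51), on a log2 scale. Pik3r3, Nfix, Tgfb1i1 and Mgll were under the filter in both controls and could be tested only by being higher in the knockouts. Of the members, Clca3a1 (0.68), Zg16 (0.92), Mmp7 (1.28) and Agr2 (1.65) came nearest. Among all tested genes these members ranked 13, 31, 98 and 156 by distance. The distance mainly ranks size of change, since 2 arrays a group leave little else to compare.

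Of the factors that direct the secretory lineage 8 of 18 tested rose, 1 fell and 9 did not pass (median change 0.42). Atoh1 itself lay under the filter on every array (2.90 and 2.81 in the controls, 2.98 and 2.90 in the knockouts) and was not tested. Gfi1, a repressor that acts after Atoh1, read 4.28 and 4.42 in the controls, against 6.15 and 5.69 in the knockouts, and rose by 1.57 (SE 0.18, limma adjusted p = 0.00308). Bhlha15 (Mist1), a factor of mature secretory cells that acinar cells of the pancreas also express, rose by 2.20 (SE 0.11, adjusted p = 0.000694). The other rises were those of the CREB family member Creb3l4 (1.37), the forkhead factor Foxa2 (1.32), the endocrine factor Neurog3 (1.02), the stress sensor of mucous cells Ern2 (0.96), the progenitor factor Sox4 (0.54) and Spdef. Creb3l4, Foxa2 and Ern2 were under the filter in both controls. The rise of Sox4 was 1.09 to 1.46 on 4 further probe sets. Elf3, an ETS factor of differentiating epithelium, fell by 0.89 (SE 0.12, adjusted p = 0.00468).

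Several factors of goblet cells did not pass: Klf4 (0.47), Foxa3 (0.37), Creb3l1 (0.33), Xbp1 (0.27), Sox9 (0.18) and Foxa1 (0.02, and -0.14 without knockout 2). The same holds for genes of Notch signalling, which restrains the secretory fate: its target Hes1 had a change of 0.27 (adjusted p = 0.100) and its ligand Dll1 one of 0.17 (adjusted p = 0.292). Hes6 had a change of -0.08, which turned to 0.05 when arrays were centred on general epithelium genes. Under that centring Foxa3 (limma adjusted p = 0.0179), Creb3l1 (0.0239), Hes1 (0.0291) and Klf4 (0.0292) passed, which made 12 factors higher. The share of all genes higher also grew under it, from 17.9% to 26.7%. Foxa3 also passed with median centring (0.0465) and quantile normalization (0.0469). Without control 2, 6 of the 9 calls were lost (Gfi1, Spdef, Ern2, Sox4, Elf3 and Neurog3, adjusted p = 0.0503 to 0.170). Without control 1 the adjusted p of Spdef, Ern2 and Sox4 was 0.0746 to 0.0868, without knockout 1 that of Sox4 was 0.128, and without knockout 2 that of Spdef, Sox4 and Neurog3 was 0.0598 to 0.0791.

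Other goblet cell genes were mostly higher, with 6 of 10 tested higher, 2 lower and 2 not passing (median 0.95). Of 26 genes on that list, 16 lay under the filter, Retnlb and Best2 at the floor on all arrays. Ang4, an antimicrobial ribonuclease of Paneth and goblet cells, read 2.80 and 2.89 in the controls, against 5.22 and 5.65 in the knockouts. It rose by 2.59 (SE 0.17, limma adjusted p = 0.000978), at least 2.71-fold above the filter value. The kallikrein Klk1 rose by 1.84 (SE 0.29, adjusted p = 0.00762) on 1448107_x_at and by 2.00 on 1415837_at, while its probe set 1460050_x_at had a change of -0.12 (adjusted p = 0.480). The goblet cell gene Rep15 and the disulfide isomerase Pdia5 both rose by 1.40, and Guca2a, which encodes the peptide guanylin, by 1.07. Galnt12, an enzyme of mucin glycosylation, rose by 0.56, while Bcas1 (0.83, adjusted p = 0.0515) and Ccl9 (0.31) did not pass. Nlrp6, a sensor protein that enterocytes also make, read 5.71 and 6.28 in the controls, against 3.05 and 2.97 in the knockouts, and fell by 2.98 (SE 0.20, adjusted p = 0.00105). The actin-severing protein Scin fell by 0.79 (adjusted p = 0.0149). The count of higher genes was 1 without knockout 2, where Klk1, Rep15, Pdia5, Guca2a and Galnt12 were lost (adjusted p = 0.0526 to 0.198). Guca2a was also lost without control 1 (0.122), control 2 (0.0576) or knockout 1 (0.0993), Galnt12 without control 1 (0.123) or control 2 (0.116), and Klk1 without knockout 1 (0.0799). Scin did not pass without control 2 (0.0860), knockout 1 (0.0788) or knockout 2 (0.120). Bcas1 passed without control 2, at a change of 1.203 (0.0417), and under each of 3 other scalings (0.0120 to 0.0282), and its change was 0.46 without control 1.

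Of 4 other mucins tested, all of which stay in the cell membrane, 3 fell and 1 rose. Muc13, a membrane mucin of the brush border, read 9.80 and 9.98 in the controls, against 7.77 and 8.01 in the knockouts. It fell by 2.00 (SE 0.13, limma adjusted p = 0.00105) there and by 2.84 on its further probe set. The membrane mucins Muc3 (-1.49, adjusted p = 0.00269) and Muc4 (-1.48, adjusted p = 0.00525) fell too, and in Muc3 both knockouts lay near the floor (2.57 and 2.88). Muc1, which read 3.64 and 3.57 in the controls, against 5.50 and 5.10 in the knockouts, rose by 1.69 (SE 0.16, limma adjusted p = 0.00199). Both Muc1 controls were under the filter, and with them set to the filter value the rise was at least 2.46-fold. The gel-forming mucins Muc5ac and Muc5b stayed at 2.36 on every array. Muc3 did not pass without control 2 (adjusted p = 0.0503), nor Muc4 without knockout 1 (0.0604) or knockout 2 (0.0543).

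Enzymes that build the sugar chains of mucins were mixed, with 6 of 17 tested higher, 1 lower and 10 not passing (median 0.22). St3gal1, a sialyltransferase, read 5.69 and 6.41 in the controls, against 3.84 and 3.66 in the knockouts, and fell by 2.30 (SE 0.25, limma adjusted p = 0.00269). The sialyltransferase St6galnac3 rose by 1.52 (limma adjusted p = 0.00215), the branching enzyme Gcnt1 by 1.38 (0.0119) and the fucosyltransferase Fut2 by 0.95 (0.0150). St6galnac3 was under the filter in both controls (2.78 and 2.64, against 4.39 and 4.06 in the knockouts) and was tested only through the knockouts. With its controls set to the filter value the rise was at least 1.17-fold. Of the enzymes that add the initial sugar, Galnt12 rose by 0.56 (0.0222) and Galnt2 by 0.52 (0.0184). C1galt1, which extends that sugar, rose by 0.49 (0.0349). With 1 array left out the number higher was 1 without control 1, 1 without control 2, 4 without knockout 1 and 2 without knockout 2. Fut2 and Galnt12 lost their calls without control 1, control 2 or knockout 2, Gcnt1 without either control, St3gal1 without knockout 2, and Galnt2 and C1galt1 in all 4 cases (adjusted p = 0.0579 to 0.147).

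Of 31 other Paneth cell genes listed, 17 were on the array and 7 were tested, of which 6 rose, none fell and 1 did not pass (median 0.85). At an unadjusted p under 0.05 limma also gave 6 higher and 0 lower. Reg3b, an antibacterial lectin, read 3.25 and 3.47 in the controls, against 5.26 and 5.46 in the knockouts, and rose by 2.00 (SE 0.14, limma adjusted p = 0.00105). Pnliprp2, a lipase that the pancreas also makes, rose by 1.40, the lectin Reg4 by 0.85 and the surface protein Cd24a by 0.49, besides Ang4 and Lyz2. In Ang4, Reg3b and Pnliprp2 both controls lay under the filter. The defensin Defa3 read 5.06 to 5.11 on all arrays, a change of -0.03. Its sign turned positive with median centring (0.01), epithelium centring (0.10) or without control 2 (0.0016). Control 1 and knockout 1 gave the identical value of 5.05653, and whether this probe set measured RNA above its background was not tested. The Paneth cell genes Pla2g2a and Reg3g lay at or near the floor. Itln1, a lectin of Paneth and goblet cells, was too dim to test and reached 3.26 at most. Without control 1, control 2 or knockout 2, 3 of the 7 rose, and Reg4, Lyz2 and Cd24a did not pass (adjusted p = 0.0712 to 0.196). Without knockout 1, Cd24a (0.0526) and Lyz2 (0.0568) did not pass.

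**Figure D3:**
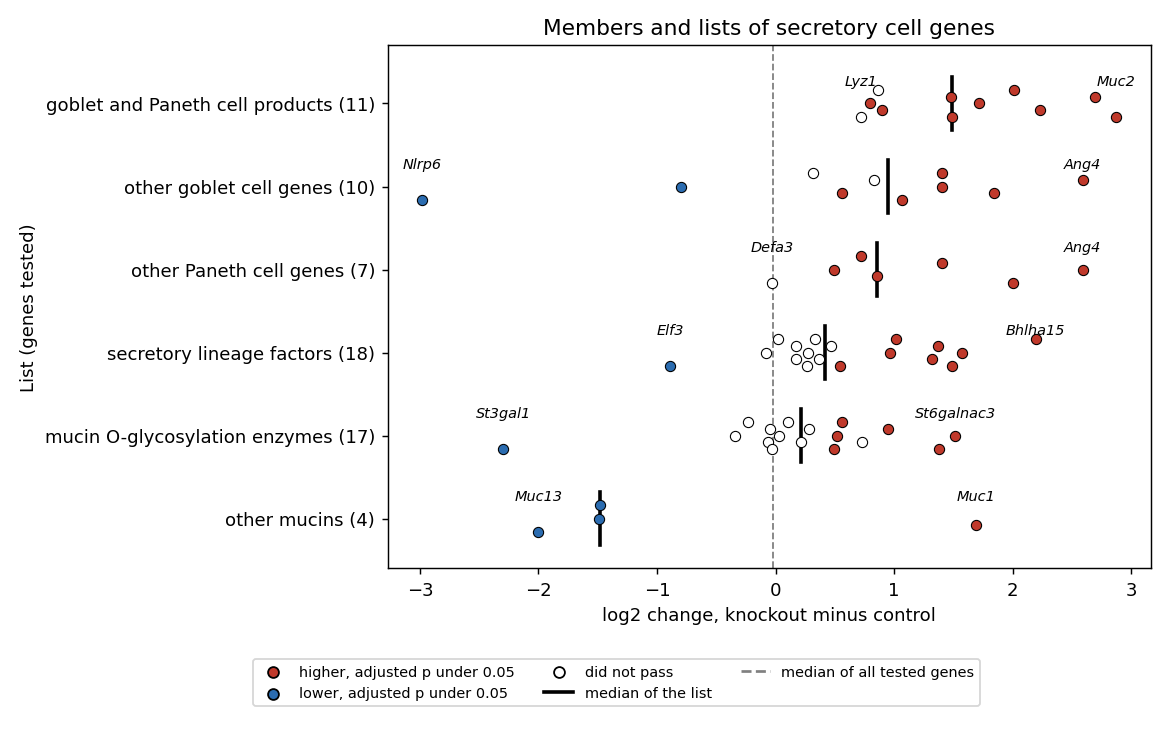
Log2 change, knockout minus control, of each tested gene of the members and of 5 lists of secretory cell genes, with the number tested in brackets. Red points rose, blue points fell, open points did not pass, and the black bar is the median of a list, which is 1.49 for the members and -1.48 for the other mucins.

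Markers of other cell types moved on the same arrays, and their part in the rises of the members was not tested. Several of the genes above are also made by other cells: Zg16 and Bhlha15 in the pancreas, Agr2 and Muc1 in the stomach, and lysozyme in macrophages. All 11 tested mesenchyme genes rose (median 2.16), as did all 8 of smooth muscle (3.22), and 12 of 13 of pancreatic acinar cells (2.20), Bhlha15 among them. Both controls were under the filter in 5 of these mesenchyme genes, 2 of smooth muscle and 2 of acinar cells. Such genes could be tested only by being higher in the knockouts. The summed level of the acinar genes stood at a log2 of 11.92 and 11.96 in the controls, against 13.5 and 13.1 in the knockouts. It was higher in knockout 1 than in knockout 2, and 1 of 13 genes was higher in knockout 2. Of the members 9 of 11 were higher in knockout 2, and of all tested genes 56.1%. What lies behind these orders was not tested. The carboxypeptidase Cpa1 rose by 2.13 from a control mean of 8.66.

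All 8 tested macrophage and leukocyte genes rose (median 1.81), Lyz2 among them, 3 of them with both controls under the filter. Their summed log2 level was 7.68 and 7.62 in the controls, against 9.39 and 9.61 in the knockouts. Of these 8, 7 were higher in knockout 2 than in knockout 1, as were 56.1% of all tested genes. The macrophage receptor Csf1r rose by 2.25, while Adgre1 stayed at 2.36 on every array. All 3 tested gastric genes rose: Gkn1 by 2.70, Cldn18 by 2.39 and Ctse by 0.47, the last not with any 1 array left out (adjusted p = 0.0612 to 0.174). The summed level of these 3 was 8.13 to 8.39 in the controls and 8.93 to 8.99 in the knockouts. Only these 3 of 17 gastric genes on the array passed the filter. Gkn1 and Cldn18 were under it in both controls, so they entered the test only through the knockouts. The stomach markers Muc5ac and Sox2 lay at the floor of 2.36 on all arrays, and Tff1 read 3.61 to 3.86. None of 11 markers of airway and stratified epithelium passed the filter. Endocrine cells of the gut, the other secretory type, had 8 of 13 tested genes higher (median 0.94), 2 of them with both controls under the filter. Of sparse lists, 2 erythroid genes and 1 gene of enteric neurons and glia rose, and 1 endothelial gene fell by 0.57. Both controls were under the filter in 1 of these erythroid genes and in the gene of neurons and glia.

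Epithelial genes went other ways. All 14 tested enterocyte genes fell (median -3.09). In 4 of them both knockouts were under the filter, so these could be tested only by being higher in the controls. Of 17 general epithelium genes 4 rose, 6 fell and 7 did not pass (median -0.08). Epcam, the marker used for selection, read 11.5 in both controls and 11.01 and 11.15 in the knockouts, and fell by 0.44 (SE 0.11, limma adjusted p = 0.0287), a call lost with any 1 array left out (0.0733 to 0.142). With arrays centred on the 17 general epithelium genes, all 11 members rose, with changes of 0.85 to 3.0 and a median of 1.62. Of all tested genes 26.7% were higher under this centring, against 17.9% without it. This scaling moved the median of all genes by 0.13 and the share of higher among called genes from 45.2% to 60.4%.

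**Figure D4:**
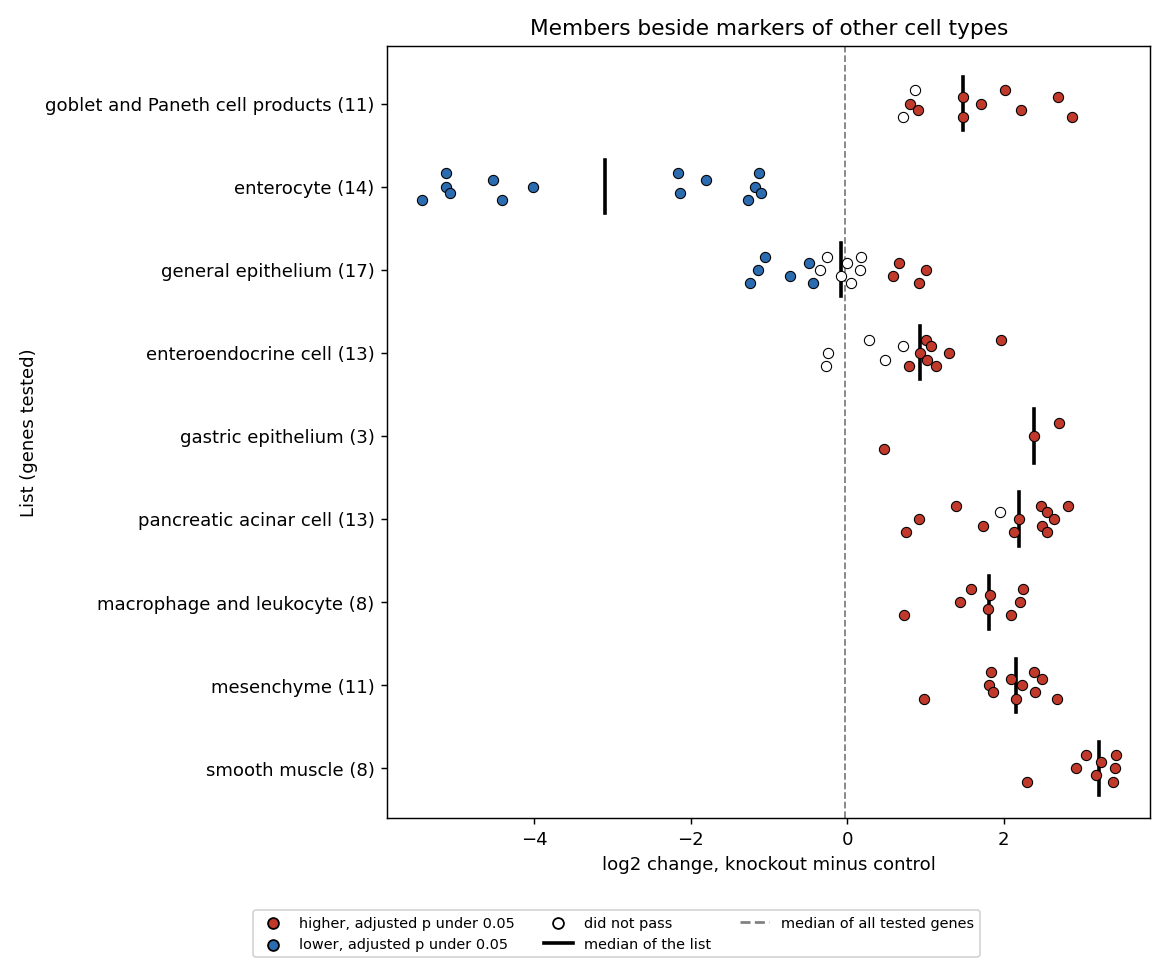
Log2 change, knockout minus control, of the 11 members beside tested markers of other cell types, coloured as rose (red), fell (blue) or did not pass (open), with list medians as black bars. The median of the members (1.49) lies on the same side as those of enteroendocrine, gastric, pancreatic, leukocyte, mesenchyme and smooth muscle markers. That of enterocyte genes (-3.09) lies opposite.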

How the data were processed

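The value table deposited by the authors holds log2 intensities of 4 Affymetrix arrays, made with GCRMA, a background correction from probe sequences with normalization between arrays, per the submitters' processing notes. Versions, settings and genome build are not given in the sources used here. The authors' deposited table of changed probe sets holds log2 fold changes, p-values, adjusted p-values and score columns (moderated t and log odds, not used), per the file headers. Its changes equalled knockout minus control to within 0.00748.

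Probe sets were named by the platform annotation, and 64 control probe sets were left out. Of the others, 34945 had 1 symbol. The filter kept 16887 probe sets with a log2 of at least 4 on at least 2 of 4 arrays. Changes come from limma 3.58.1 (lmFit, eBayes; R 4.3.3), without covariates, with Benjamini-Hochberg adjustment over these probe sets, and the scripts were tested on simulated data. Each gene is read from the brightest of its tested probe sets, by mean. Between 35.6% and 36.4% of probe sets reached a log2 of 4 on an array. Pearson's r across tested probe sets, which are not independent, was 0.990 within controls, 0.989 within knockouts and 0.905 to 0.925 between genotypes. The number of arrays limits precision. Listed older symbols were matched through RefSeq names.

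Named were all members, secretory factors and other mucins tested, up to 6 genes past the threshold with the largest changes, without overlap of groups, from the other secretory lists, and leading markers of other cell types. Further genes were picked out after their values were seen. Members and lists were chosen with earlier results of these data known, so no p over a list is given.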

Additional observations from a re-analysis of the deposited data

Results flagged for a closer look

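Probe sets that the annotation assigns to several genes, a member or a listed Paneth cell gene among them, stood outside the comparison. A pair of them was picked by its values. The rule was both knockouts above both controls, as in 35.4% of all tested genes, and a knockout mean of at least 4. The defensin probe set 1450631_x_at, assigned to Defa30 and Defa24, read 8.01 and 8.46 in the controls, against 9.52 and 10.1 in the knockouts, a knockout mean of 9.79, with a rise of 1.55 (SE 0.24, limma adjusted p = 0.00692). Alpha-defensins are products of Paneth cells. The single-gene probe set of Defa3 read 5.06 to 5.11, with the identical value on control 1 and knockout 1. It may not have measured RNA above its background, so it gives no contrast to this rise. The probe set of Defa22 and Defa21 was too dim to test, at 2.36 in both controls, against 2.55 and 3.59 in the knockouts. The probe set 1460259_s_at, assigned to Clca3a2 and Clca3a1, read 3.45 and 3.39 in the controls, against 6.16 and 5.74 in the knockouts, a knockout mean of 5.95 and a change of 2.53 (SE 0.16, limma adjusted p = 0.00101). Both controls of 1460259_s_at lay under the filter, so it could be tested only by being higher in the knockouts. The suffix of 1450631_x_at marks probes that can match related transcripts, also outside the assigned pair. Which of the assigned genes or related transcripts gave these signals was not tested. Groups of 2 arrays are too small for a test of single outlying arrays.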

How the results depend on the processing

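The changes of all 11 members were positive under all alternatives run, between 0.37 (Clca1 without control 1) and 3.24 (Muc2 without control 2). The number of members higher was 7 to 11 under the other filters, the offset of 16, the scalings, variance models, probe set choices, thresholds and the replicate block (9), except with no filter on low values, where it was 0 (9 at an unadjusted p under 0.05 in limma). With no filter all counts of higher or lower genes on the secretory lists were 0 too, and of all 18193 genes 39 (0.214%) were higher and 48 lower. That setting admits probe sets at the floor with no variance, and their part in the loss of calls was not tested. Under the other alternatives above, 8.32% (adjusted p under 0.01 in limma) to 26.7% (epithelium centring) of all genes were higher. With 1 array left out, fewer members were called higher, as were fewer of all genes, and the lone array was assumed to vary like the others. Clca1 also passed with a filter at log2 of 6 and each of the 3 scalings (adjusted p = 0.0260 to 0.0494), and Lyz1 with that filter, median centring and epithelium centring (0.0243 to 0.0426).

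Ranges with 1 array left out were 1 to 4 (higher) and 0 to 1 (lower) for O-glycosylation enzymes, 1 to 5 for other goblet genes, 3 to 4 for other Paneth genes, and 3 to 7 (higher) and 0 to 1 (lower) for secretory factors. With a filter at log2 of 6, which tests fewer genes, higher counts were 3 for other goblet genes, 1 for other Paneth genes, 0 for other mucins and 3 for secretory factors, and 0 O-glycosylation enzymes were lower. The O-glycosylation enzymes gave 3 higher against a 1.2-fold change, 1 higher at an adjusted p under 0.01, and 2 lower with the filter on 1 array or with the probe set of largest SD. Other Paneth genes gave 3 higher at an adjusted p under 0.01.

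Between arrays of equal replicate number the deviations had r = -0.31. The sign of this value depends on how the arrays were numbered, so it cannot show whether samples were paired. The replicate block left 9 members higher. Crossed numbers, added after the data had been seen, gave 11. Without the 3 members dim in both controls, 6 of 8 were higher. The offset of 16 lowered the changes of members with dim controls: Mmp7 from 2.02 to 0.91, Zg16 from 2.23 to 1.19 and Clca3a1 from 2.70 to 1.46. That of Muc2 went from 2.87 to 2.01, and that of the bright Spink4 from 1.48 to 1.46. Whether values near the floor understate or overstate changes was not tested.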
